A study of Homo sapiens with 8 samples.

Results

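The 10 genes described here are the 5 NF-κB subunit genes (NFKB1, NFKB2, REL, RELA and RELB), 4 genes that act back on the pathway (NFKBIA, TNFAIP3, BIRC3 and BCL3) and SOD2, which encodes the mitochondrial superoxide dismutase. They were named as a group and mapped by symbol to the gene rows of the count files, where 10 of 10 were found among 58688 rows. SOD2 was taken as the row ENSG00000112096.13, since the reference annotation used here lists that symbol under another identifier (ENSG00000291237.1). The group was proposed with results of these same samples known, so its values are given as a description and no test of a member is read.

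RNA was sequenced from LM2 cells, a line derived from the human triple-negative breast cancer line MDA-MB-231 that is selected for spread to the lung. In one experiment, cells received the vehicle DMSO or 1 µmol/L Ponatinib, a multi-kinase inhibitor whose targets include the ABL kinases, for 6 h, with 2 samples per group. In the other, stable lines were made with lentivirus carrying a scrambled short hairpin RNA (shCtrl), a hairpin against ABL1 (shABL1), a hairpin against ABL2 (shABL2) or both hairpins, with 1 sample per line and 1 hairpin per gene. The 2 experiments ask how a kinase inhibitor and the lowering of its ABL targets bear on the same genes. All lines were grown in the same serum-containing medium, and the hairpin lines, shCtrl included, had been exposed to lentivirus for 48 h and then selected with puromycin, which the labels and the study's methods do not describe for the DMSO and Ponatinib cells.

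Reads counted on genes summed to between 7568934 (Ponatinib 2) and 13010896 (shABL1) per sample, so that 3 counts equal 0.231 to 0.396 CPM (read counts expressed relative to the total of the sample). The mesenchymal marker VIM (1896 to 3179 CPM) and CD44 (480 to 741 CPM) were abundant in all 8 samples, PGR had 0 counts in each, and ESR1 had at most 11. The other markers examined were not absent. KRT18 had 1119 to 4030 counts per sample, ERBB2 had 515 to 826, EPCAM had at least 61, and CDH1 had 0 to 23. Nothing in the labels says that samples of a group came from separate cultures, so p-values measure only the spread between these samples, which may be technical. Marker levels, here and for other cell types, are plain CPM. All other levels are CPM scaled by edgeR's TMM factors within an experiment. Levels are not compared between the 2 experiments, in which treatment, virus, puromycin selection and time cannot be told apart.

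NF-κB is a family of dimeric transcription factors. In resting cells inhibitor proteins of the IκB family hold the dimers in the cytoplasm, and signals from cytokine and Toll-like receptors activate the IκB kinases, whose action destroys the inhibitors and frees the dimers. The freed dimers switch on inflammatory, survival and antioxidant genes and also the genes of their own inhibitors, which closes a feedback loop, and part of the family is constitutively active in many triple-negative breast cancer cells.

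Promoter sequences were examined because the feedback genes are textbook NF-κB targets. RefSeq promoter windows (GRCh38.p14, from 250 bases before to 50 bases after a start) were available for 16 starts of members, and RELB has no entry in that table. A match to the NF-κB consensus decamer on either strand lay in 8 of the 16 windows, against 11.3% of 35116 windows in the table. The matches fell in 7 of the 10 members, some of which have several windows and RELB none, so that count has no such background. The group was named for NF-κB, so nothing is read from the difference. The AP-1 heptamer TGANTCA, also searched on both strands, was found in 7.71% of all windows and in 0 of the 16, so no overlap with a decamer arose. The 3 stretches printed here are from feedback genes whose mRNA levels lay on different sides of the control in Ponatinib-treated cells. Each runs 5′ to 3′ on the strand of the gene, ends at the last base before the annotated gene, and has its decamer matches in capitals.
NFKBIA, minus strand, chr14:35404750-35404949: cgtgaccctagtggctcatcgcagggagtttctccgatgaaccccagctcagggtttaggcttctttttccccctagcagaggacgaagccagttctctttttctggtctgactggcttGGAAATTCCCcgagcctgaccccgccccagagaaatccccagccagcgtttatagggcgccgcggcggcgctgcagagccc
TNFAIP3, plus strand, chr6:137867014-137867213: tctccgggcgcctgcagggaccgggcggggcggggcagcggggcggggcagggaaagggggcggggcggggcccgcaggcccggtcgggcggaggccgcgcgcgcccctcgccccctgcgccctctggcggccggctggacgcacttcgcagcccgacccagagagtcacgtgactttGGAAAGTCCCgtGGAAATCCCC
BIRC3, plus strand, chr11:102317284-102317483: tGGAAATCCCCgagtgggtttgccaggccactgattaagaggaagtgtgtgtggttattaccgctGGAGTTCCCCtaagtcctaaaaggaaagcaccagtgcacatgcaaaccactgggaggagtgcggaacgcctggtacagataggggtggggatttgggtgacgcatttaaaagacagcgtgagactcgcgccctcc

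Counting the RefSeq start as base 0, the NFKBIA match GGAAATTCCC began at base -81. TNFAIP3 held GGAAAGTCCC from base -67 and GGAAATCCCC from base -55, so that only a short spacer separates them, and BIRC3 held GGAAATCCCC from base -199 and GGAGTTCCCC from base -135. Among the subunits, NFKB1 had GGGAATTTCC from base -49 and REL had GGGAAATTCC from base -47. NFKB2 had matches at starts 2 and 3 of its windows, among them GGGAATTCCC from base -107 and GGGACTTTCC from base -21. The first of these and GGGGCTTCCC from base -176 matched on both strands. BCL3 had GGGAAGTCCC from base 2, just inside the transcript. The windows of RELA and SOD2 held no match, which says only that these letters are absent from those 300 bases.

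**Figure D1:**
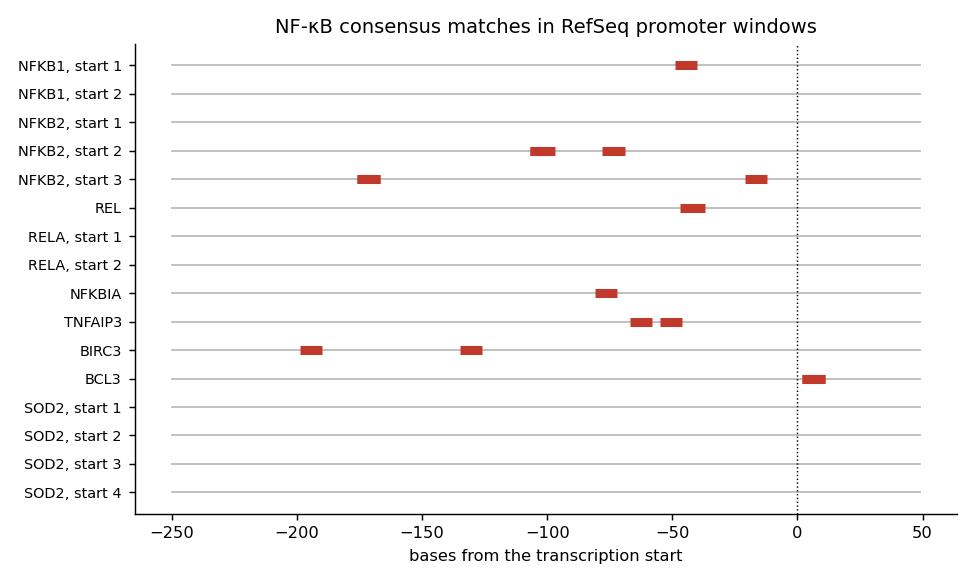
Position of matches to the NF-κB consensus decamer (marks) in the RefSeq promoter windows of the members, with bases from the transcription start on the x axis and 1 row per start. Of the 16 windows, 8 hold a match, and the windows of RELA and SOD2 hold none.

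In Ponatinib-treated cells the members did not move as a block. NFKBIA, BCL3 and SOD2 were higher in both Ponatinib samples than in both DMSO samples, NFKB1, NFKB2, RELA, BIRC3 and TNFAIP3 were lower in both, and REL and RELB overlapped between the groups. Across all 16031 genes tested, the groups did not overlap for 64.9% of genes (32.1% higher and 32.8% lower), and 15% were called higher and 15.7% lower by edgeR's quasi-likelihood test at an adjusted p under 0.05. By that rule 3 members were past the threshold upward (NFKBIA, BCL3 and SOD2), 4 downward (NFKB1, NFKB2, RELA and BIRC3), and 3 were not past it (REL, RELB and TNFAIP3). Because the members were chosen from this contrast, nothing is read from those counts. Some of these depended on 1 sample or on the tool. SOD2 was not past the threshold without DMSO replicate 1 (edgeR adjusted p = 0.18), RELA without DMSO replicate 2 (0.0952), and NFKB2 when either DMSO replicate was left out (0.079 and 0.116) or by DESeq2's Wald test (0.0927). Without DMSO replicate 2 the downward count was 2. By the study's own rule of a fold over 2 with an unadjusted P under 0.05, which takes 5.48% of all genes (3.19% higher and 2.29% lower), only BCL3 was past it. The median log2 fold change of the 10 members was -0.15 and that of all genes tested was -0.0047.

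**Figure D2:**
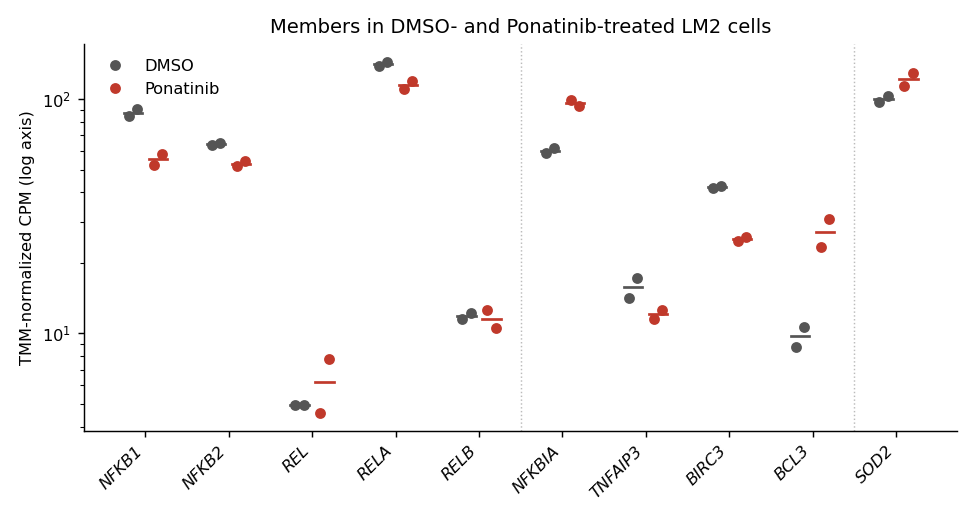
TMM-normalized CPM (log axis) of each member in the 2 DMSO and 2 Ponatinib samples, 1 point per sample with a line at each group mean, ordered as subunits, feedback genes and SOD2. BCL3 shows the widest gap between the groups (9.70 against 27.1 CPM), and the points of REL and RELB overlap.

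Among the subunits, NFKB1 encodes p105, the precursor that is trimmed to the p50 subunit. It lies on chromosome 4 from 102501330 to 102617302 (GRCh38, plus strand). Its level was 84.4 and 90.8 CPM with DMSO and 52.3 and 58.3 CPM with Ponatinib. Both treated samples lay well below both controls, with means of 87.6 ± 4.59 and 55.3 ± 4.26 CPM (SD, n = 2 each) and a log2 difference of -0.67 (SE 0.078).

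RELA encodes p65, the subunit that carries most of the activating function of the common p50/p65 dimer (chromosome 11, 65653599 to 65663090, minus strand). RELA had 138 and 145 CPM with DMSO and 111 and 120 CPM with Ponatinib, a log2 fold change of -0.29 (SE 0.067). The samples did not overlap, and the gap between group means, 141 ± 4.63 against 115 ± 6.56 CPM, was small beside that of NFKB1. Part of RELA shares exonic sequence with the antisense gene RELA-DT, and without a stranded library such reads cannot be assigned.

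NFKB2 encodes p100, the precursor of the p52 subunit of the non-canonical arm (chromosome 10, 102394110 to 102402524, plus strand). It had 63.8 and 65.2 CPM with DMSO and 51.8 and 54.4 CPM with Ponatinib, a log2 fold change of -0.28 (SE 0.075). The samples again did not overlap, although the group means differed by a ratio of only 0.823.

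REL and RELB, which encode c-Rel and the p52 partner RelB, stayed within the spread of their groups. REL had 4.96 and 4.96 CPM with DMSO and 4.56 and 7.81 CPM with Ponatinib (chromosome 2, 60881491 to 60931612, plus strand). These rest on 48 to 60 counts per sample, and the value of Ponatinib 2 alone lay above the controls. Its log2 fold change of 0.27 (SE 0.24) became 0.66 without Ponatinib replicate 1 and -0.12 without Ponatinib replicate 2. Exons of REL overlap those of ENSG00000267520 on the same strand, and reads there are uncertain. RELB had 11.5 and 12.3 CPM with DMSO and 12.5 and 10.5 CPM with Ponatinib, a log2 fold change of -0.02 (SE 0.15; chromosome 19, 45001461 to 45038192, plus strand).

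The feedback genes split. NFKBIA encodes IκBα, the inhibitor that is destroyed on activation and made anew as an NF-κB target (chromosome 14, 35401079 to 35404749, minus strand). It had 58.9 and 61.7 CPM with DMSO and 99.3 and 93.8 CPM with Ponatinib. Both treated samples lay far above both controls, with means of 60.3 ± 1.99 and 96.5 ± 3.83 CPM (SD, n = 2 each). This is a log2 difference of 0.68 (SE 0.071).

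BCL3 encodes an atypical IκB protein that works in the nucleus with p50 or p52 dimers (chromosome 19, 44747705 to 44760044, plus strand). It had 8.76 and 10.6 CPM with DMSO and 23.5 and 30.7 CPM with Ponatinib, resting on 99 to 247 counts. The treated samples differed more from each other than the controls did, and both stood more than 2-fold above either control. The ratio of the means was 2.79 and the log2 fold change 1.47 (SE 0.15), with a range of 1.28 to 1.68 over all alternative settings and left-out samples. Exons of BCL3 overlap MIR8085 on the same strand, and reads there are uncertain.

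BIRC3, which encodes the ubiquitin ligase cIAP2, moved the other way (chromosome 11, 102317484 to 102339403, plus strand). It had 42.0 and 42.5 CPM with DMSO and 24.9 and 25.8 CPM with Ponatinib. Samples of a group were nearly identical, and the group means of 42.2 ± 0.41 and 25.3 ± 0.61 CPM (SD, n = 2 each) gave a log2 difference of -0.74 (SE 0.092). Exons of BIRC3 overlap those of ENSG00000288528 on the other strand, and reads there are uncertain.

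TNFAIP3 encodes A20, the ubiquitin-editing enzyme that shuts off signalling upstream of the IκB kinases (chromosome 6, 137867214 to 137883314, plus strand). Its values were 14.2 and 17.3 CPM with DMSO and 11.5 and 12.6 CPM with Ponatinib, a log2 fold change of -0.38 (SE 0.15). The groups did not overlap, but the DMSO samples lay further from each other than DMSO 1 lay from Ponatinib 1. Exons of TNFAIP3 overlap those of WAKMAR2 on the other strand, and reads there are uncertain.

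SOD2 converts superoxide to hydrogen peroxide in mitochondria and is a known NF-κB target. Its row had 97.6 and 103 CPM with DMSO and 114 and 129 CPM with Ponatinib. The treated samples were both higher by a small margin, with means of 101 ± 4.08 and 121 ± 10.7 CPM (SD, n = 2 each) and a log2 difference of 0.27 (SE 0.074). The annotation used here lists SOD2 under another identifier than the counted row, on chromosome 6 from 159669069 to 159762529 (minus strand). That entry shares exonic sequence with SOD2-OT1, WTAP and ACAT2. Whether the counted row does too was not examined, so part of its reads may be uncertain.

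Ratios of counts between members within 1 sample need no scaling between samples. The members were chosen with this contrast known, and a ratio of a higher to a lower member follows from the levels above. The ratios therefore restate those levels and are no separate support. NFKBIA had 0.698 and 0.679 counts per NFKB1 count in the DMSO samples and 1.90 and 1.61 in the Ponatinib samples. BCL3 had 0.209 and 0.25 counts per BIRC3 count with DMSO and 0.943 and 1.19 with Ponatinib. In both ratios the treated samples lay more than 2-fold above the controls, whereas SOD2 counts per NFKBIA count were lower with Ponatinib (1.15 and 1.37) than with DMSO (1.66 and 1.68). NFKB2 counts per NFKB1 count, both lower with Ponatinib, were 0.757 and 0.718 with DMSO and 0.991 and 0.933 with Ponatinib. These are ratios of raw counts and are not levels per gene length.

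Per kilobase of exon, RELA was the highest of 9 members in DMSO-treated cells, at 25.9 ± 0.847 RPKM (CPM divided by the exon length in kilobases, SD, n = 2), followed by NFKBIA at 17.7 ± 0.585 and NFKB2 at 11.5 ± 0.177. BIRC3 (5.63 ± 0.0546) and NFKB1 (5.57 ± 0.292) did not differ beyond their spread. RELB (3.95 ± 0.176), BCL3 (3.13 ± 0.426) and TNFAIP3 (2.44 ± 0.345) came next, and REL was lowest at 0.289. SOD2 was left out, since the exon length on hand belongs to another identifier. The order depends on which length is used. With the length of the canonical transcript, an alternative added after the data were seen, RELA (56.1) and NFKBIA (38.6) still led and REL (0.445) was still lowest, but NFKB1 (21.6) and NFKB2 (21.4) ranked above BIRC3 (6.13).

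Genes elsewhere in the pathway, none of them members, were counted from lists by their role, and these were tested with edgeR over all 16031 genes. Of 105 listed genes, 16 antioxidant enzymes included, 94 could be tested, of which 15 rose, 29 fell and 50 did not pass, beside 15% and 15.7% of all genes. Without DMSO replicate 1, 9 rose and 23 fell. The lists were written with earlier results of these samples known.

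Of 19 receptors and adaptors 2 rose and 6 fell, with a median log2 fold change of -0.11, and 1 rose and 3 fell without DMSO replicate 1. DESeq2's Wald test also gave 1 that rose. TLR4, the receptor for bacterial lipopolysaccharide, fell from 54.5 ± 0.108 to 29.1 ± 0.111 CPM (SD, n = 2 each; log2 fold change -0.91, edgeR adjusted p = 1.19e-06). TLR3, the receptor for double-stranded RNA, rose from 4.72 ± 0.916 to 10.4 ± 2.37 CPM (log2 fold change 1.13, edgeR adjusted p = 0.000949). BIRC2, the paralogue of BIRC3 that encodes cIAP1, fell from 235 ± 3.19 to 153 ± 5.84 CPM (log2 fold change -0.62, edgeR adjusted p = 2.68e-06). The adaptors TRAF5 (0.38) and TRAF3 (-0.33) moved less, with edgeR adjusted p of 0.0135 and 0.00842, and neither passed by DESeq2's Wald test (adjusted p = 0.0699 and 0.0578).

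Of 15 kinases and ubiquitin ligases 4 rose and 3 fell, with a median of 0.06, and 2 rose without DMSO replicate 1. MAP3K14, which encodes the NF-κB-inducing kinase of the non-canonical arm, fell from 48.5 ± 2.68 to 26.7 ± 1.77 CPM (log2 fold change -0.87, edgeR adjusted p = 5.51e-06). MAP3K8, the kinase that is held by p105, rose from 4.86 ± 1.14 to 11.4 ± 0.803 CPM (log2 fold change 1.21, edgeR adjusted p = 0.000203). RBCK1, a subunit of the linear ubiquitin ligase, rose from 64.2 ± 1.30 to 117 ± 3.59 CPM (log2 fold change 0.86, edgeR adjusted p = 2e-07). CHUK, which encodes IκB kinase α, fell by 0.35 on the log2 scale (edgeR adjusted p = 0.00245), and BTRC, whose product marks IκB for destruction, rose by 0.35 (edgeR adjusted p = 0.0119; DESeq2 adjusted p = 0.0848).

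Of the 5 other IκB family genes 0 rose and 2 fell by edgeR, and DESeq2's Wald test gave 0 and 1. Without DMSO replicate 1, 1 fell, and without Ponatinib replicate 2, 1 rose. At an unadjusted p under 0.05 in edgeR 1 gene was higher, NFKBIL1, by 0.29 on the log2 scale (edgeR adjusted p = 0.088). The called genes of the family thus lay on the other side of the control from NFKBIA and BCL3. NFKBIZ, a nuclear IκB protein like BCL3, went from 40.1 ± 0.409 to 27.1 ± 0.301 CPM (log2 fold change -0.57, edgeR adjusted p = 0.000246). NFKBIB, which encodes IκBβ, went from 25.6 ± 4.04 to 18.4 ± 1.38 CPM (log2 fold change -0.48, edgeR adjusted p = 0.0111; DESeq2 adjusted p = 0.0673). Of 10 other brakes tested 2 rose and 2 fell. The number that rose was 0 by DESeq2's Wald test and without DMSO replicate 2, where 1 fell, and 1 without DMSO replicate 1 or Ponatinib replicate 2. The deubiquitinase gene CYLD fell by 0.40 on the log2 scale (edgeR adjusted p = 0.00245) and TNIP1, which encodes a binding partner of A20, fell by 0.28 (edgeR adjusted p = 0.00446), though not past the threshold without DMSO replicate 2 (adjusted p = 0.167). N4BP1 rose by 0.34 (edgeR adjusted p = 0.0186) and TAX1BP1, an adaptor of A20, rose by 0.21 (edgeR adjusted p = 0.0198), and neither passed by DESeq2's Wald test (adjusted p = 0.0742 and 0.0801).

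The cytokine, chemokine and adhesion targets held the genes with the largest differences of any list. Of 15 that could be tested 10 fell and 3 rose, with a median log2 fold change of -1.53. Only 1 rose by DESeq2's Wald test and when either DMSO replicate was left out. IL1B fell from 51.6 ± 1.77 to 3.60 ± 1.23 CPM (log2 fold change -3.79, edgeR adjusted p = 1.14e-10). CSF3, the gene of the granulocyte growth factor G-CSF, fell from 91.0 ± 0.632 to 8.47 ± 1.09 CPM (log2 fold change -3.44, edgeR adjusted p = 9.62e-12), and CXCL8, the neutrophil attractant interleukin-8, fell from 28.4 ± 3.64 to 5.86 ± 0.359 CPM (log2 fold change -2.28, edgeR adjusted p = 3.2e-08). CSF2 fell as well, from 52 and 68 counts to 10 and 1 (log2 fold change -3.21, edgeR adjusted p = 5.07e-05). The close paralogues CXCL1, CXCL2 and CXCL3 may share reads, so their counts are uncertain. The 3 that rose were CX3CL1, VCAM1 and CXCL2, of which CX3CL1 had 3 to 13 counts per sample (log2 fold change 1.77, edgeR adjusted p = 0.018) and was not past the threshold when either DMSO sample or Ponatinib replicate 2 was left out (adjusted p = 0.0879 to 0.152). IL6, a gene singled out after its values were seen, was at -0.03 on the log2 scale (edgeR adjusted p = 0.921). CSF2 and IL1A passed the count filter of the test only through the DMSO samples, and CX3CL1 only through the Ponatinib samples. The direction of these genes was thus tied to entering the test, and they are part of the counts and the median given for this list.

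Of 14 survival and other targets 6 fell and 1 rose, with a median of -0.22, and 2 rose when either Ponatinib replicate was left out. BCL2L1, which encodes the anti-apoptotic protein BCL-XL, fell from 698 ± 4.83 to 237 ± 10.7 CPM (log2 fold change -1.56, edgeR adjusted p = 8.71e-11), and IER3 fell from 277 ± 14.4 to 112 ± 9.55 CPM (log2 fold change -1.31, edgeR adjusted p = 3.94e-09). CD83 (-0.79, edgeR adjusted p = 0.00305) and JUNB (-0.55, edgeR adjusted p = 0.00234) fell too. TNFAIP2 rose from 102 ± 0.829 to 178 ± 7.79 CPM (log2 fold change 0.81, edgeR adjusted p = 2.6e-07).

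SOD2 was set beside 16 other antioxidant enzymes, of which 3 rose, 0 fell and 13 did not pass by edgeR. An unadjusted p under 0.05 in edgeR and DESeq2's Wald test also gave 0 lower, but 5 were lower without Ponatinib replicate 1. The 3 were CAT, which encodes catalase (60.8 ± 2.44 to 111 ± 3.47 CPM, log2 fold change 0.86, edgeR adjusted p = 2.69e-07), TXNRD1, thioredoxin reductase (0.57, edgeR adjusted p = 2.18e-06), and GSR, glutathione reductase (0.52, edgeR adjusted p = 0.000109). The other superoxide dismutases, chosen after their values were seen, had log2 fold changes of -0.04 for SOD1 and 0.13 for SOD3 (edgeR adjusted p = 0.766 and 0.37). The list median was -0.04.

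**Figure D3:**
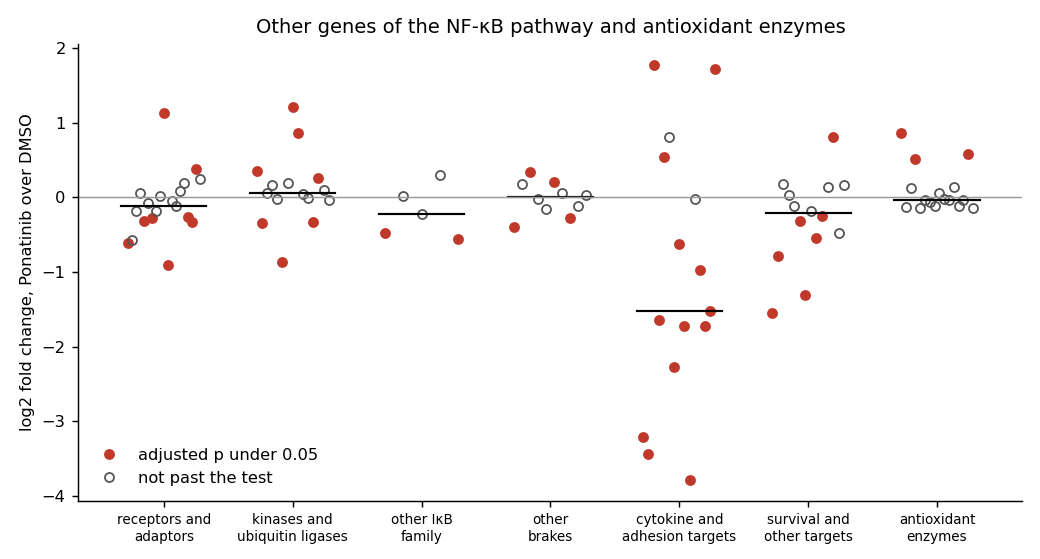
Log2 fold change of Ponatinib over DMSO for each tested gene (1 point per gene) of 6 pathway lists and the antioxidant enzymes, members left out, with genes past an adjusted p of 0.05 filled in red and a bar at each list median. The cytokine and adhesion targets reach from -3.79 to 1.77, and the other lists lie closer to 0.

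In the knockdown lines, the targeted genes were read first. ABL1 had 190 CPM in shCtrl, 72.7 CPM in shABL1, 202 CPM in shABL2 and 109 CPM with both hairpins. ABL2 had 236, 212, 93.5 and 148 CPM in the same order. Each hairpin line had the lowest level of its own target, and the double line kept more of each target (ratios to shCtrl of 0.576 and 0.625) than the single lines did (0.383 and 0.396). A header cell inside the shCtrl file reads as ABL1 shRNA and that inside the shABL1 file as control, and the libraries are used as the labels give them. ABL1 was lowest in the library labelled shABL1. Each line is 1 sample, so ratios carry only a 95% exact binomial interval for counting error and no difference is tested. In the Ponatinib experiment, ABL2 fell from 321 ± 20.7 to 158 ± 15.2 CPM (SD, n = 2 each; log2 fold change -1.02, edgeR adjusted p = 8.56e-08). ABL1 rose there by 0.19 on the log2 scale (edgeR adjusted p = 0.0287).

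SOD2 had the lowest ratio of any member in all 3 knockdowns. It had 762 CPM in shCtrl, 209 CPM in shABL1, 277 CPM in shABL2 and 143 CPM with both hairpins, from 8673, 2707, 3483 and 1741 counts. The ratios to shCtrl were 0.274 (0.262 to 0.286), 0.363 (0.349 to 0.377) and 0.188 (0.178 to 0.198), and the interval of the double line lay below those of either single line. Of 10386 genes with at least 100 counts in shCtrl, 23, 38 and 8 had a ratio as low as that of SOD2 or lower, SOD2 included. All 3 lines lay more than 2-fold below shCtrl, which held for 1.02% of 16329 genes. All 3 ratios share 1 shCtrl sample, so they are not 3 separate observations of a difference. SOD2 was chosen with these contrasts known, and the filter of 100 counts used shCtrl, where SOD2 was highest. Nothing is therefore read from its place among all genes or from that share.

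TNFAIP3 was next lowest in shABL2 and the double line, whereas in shABL1 RELB was (ratio 0.664). TNFAIP3 had 50.02 CPM in shCtrl, 34.4 CPM in shABL1, 28.03 CPM in shABL2 and 22.5 CPM with both. The level was lower in each line, with ratios of 0.689, 0.560 and 0.451, and the interval of the double line (0.389 to 0.521) did not reach that of shABL1 (0.607 to 0.781).

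NFKBIA, which was higher with Ponatinib, was not higher in any knockdown. It had 202 CPM in shCtrl, 190 CPM in shABL1, 149 CPM in shABL2 and 149 CPM with both, and the ratios were 0.940 (0.888 to 0.996), 0.739 (0.695 to 0.786) and 0.735 (0.691 to 0.782). BCL3, the member with the largest Ponatinib difference, had 57.9, 53.5, 40.7 and 50.7 CPM in the same order. Its interval lay below 1 in shABL2 (0.624 to 0.789) and with both hairpins (0.782 to 0.978) and included 1 in shABL1.

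BIRC3 was the member that differed most between the 2 single knockdowns. It had 76.2 CPM in shCtrl, 123 CPM in shABL1, 63.8 CPM in shABL2 and 82.3 CPM with both. It was thus above shCtrl in shABL1 (ratio 1.62, 1.49 to 1.76), below it in shABL2 (0.837, 0.759 to 0.922) and not separable from it by counting error in the double line (1.08, 0.984 to 1.18).

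The subunit genes lay between 0.624 and 1.18 times shCtrl. RELB had 46.4 CPM in shCtrl and 30.8, 29.5 and 29.0 CPM in shABL1, shABL2 and the double line, and NFKB1 had 92.0 CPM and then 67.0, 77.3 and 63.6 CPM. Both were lower in each line, RELB by a near-constant ratio (0.664, 0.636 and 0.624). RELA had 142, 132, 108 and 128 CPM and REL had 12.8, 12.6, 9.85 and 10.8 CPM, with their lowest values in shABL2. NFKB2 had 145, 171, 115 and 138 CPM, above shCtrl in shABL1 (ratio 1.18, 1.11 to 1.26) and below it in shABL2 (0.796, 0.741 to 0.855).

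Over the 10 members, 8 were below shCtrl in all 3 knockdowns, the exceptions being NFKB2 and BIRC3, and 0 were above it in all 3. Of all genes, 29.5% and 29.6% were. The interval lay wholly below 1 for 5 members in shABL1, 10 in shABL2 and 7 in the double line, beside 24%, 22.1% and 22.4% of all genes. It lay wholly above 1 for 2 members in shABL1 and 0 in the other lines, beside 22.7%, 19.9% and 20.9% of all genes. More than 2-fold lower were 1 member in shABL1, 1 in shABL2 and 2 in the double line, beside 4.35%, 3.41% and 3.55% of all genes, and 0 members were more than 2-fold higher, beside 5.17%, 4.97% and 4.87%. At a limit of 1.5-fold, 1 member was higher and 2 lower in shABL1 (13% and 11.7% of all genes), 0 and 3 in shABL2 (12.2% and 8.55%) and 0 and 3 in the double line (12.2% and 9.85%). The median log2 ratio of the members was -0.11, -0.41 and -0.35, against medians within 0.01 of 0 for all genes. Since the members were chosen with these contrasts known, nothing is read from the counts. If shCtrl and shABL1 are exchanged, as their header cells would have it, the direction of 13 of the 30 ratios differs, and SOD2 becomes higher in shABL1 and shABL2. The library then taken as shABL1 has 190 CPM of ABL1, that taken as shCtrl 72.7 CPM and the double line 109 CPM.

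**Figure D4:**
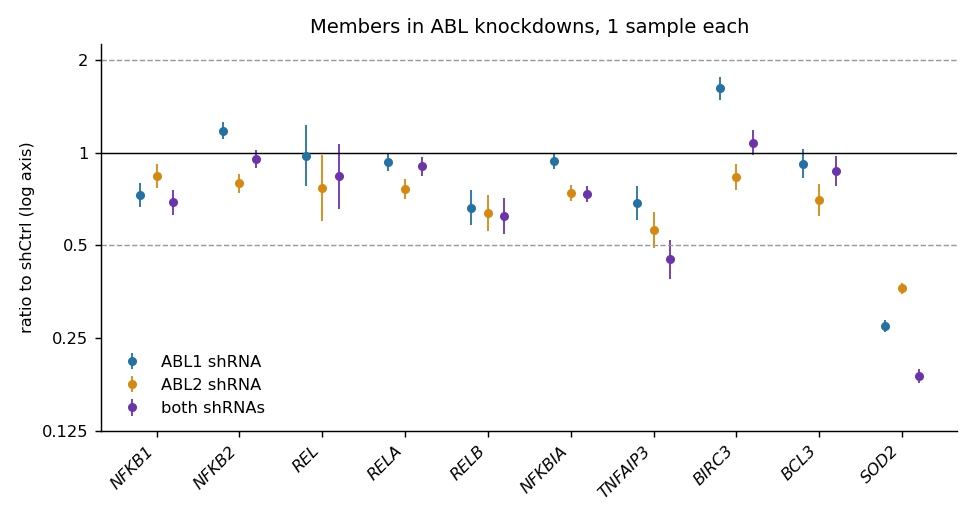
Ratio of each member's CPM to shCtrl (log axis) in shABL1, shABL2 and the line with both hairpins, 1 sample each, with bars for the 95% counting interval. SOD2 lies lowest in every line (0.274, 0.363 and 0.188), and BIRC3 in shABL1 lies highest (1.62).

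The other pathway genes were counted in the same way. Of 100 listed genes with enough counts, 4 were more than 2-fold higher and 6 lower in shABL1, 1 and 7 in shABL2, and 2 and 9 in the double line. In the same order, 5.17% and 4.35%, 4.97% and 3.41%, and 4.87% and 3.55% of all genes were. Most of the lower listed genes were cytokine and adhesion targets, of which 5, 7 and 8 of 19 were more than 2-fold lower (list medians -0.63, -0.81 and -0.76). CXCL8 had 387 CPM in shCtrl and ratios of 0.344, 0.293 and 0.193 in shABL1, shABL2 and the double line. In the double line its counting interval (0.179 to 0.207) overlapped that of SOD2 (0.178 to 0.198). In the single lines the intervals were apart, with CXCL8 above SOD2 in shABL1 and below it in shABL2. The chemokine gene CXCL1 (239 CPM in shCtrl) had ratios of 0.525, 0.334 and 0.280, and IL6 (70.8 CPM) had 0.50, 0.369 and 0.282. Both, like SOD2, had their lowest ratio in the double line. CXCL3 (0.468, 0.431 and 0.282) and CCL20 (0.388, 0.310 and 0.294, from 22 to 70 counts) had the same order, whereas SAA1, an acute-phase gene, was lowest in shABL2 (0.645, 0.251 and 0.482), though a near-identical copy, SAA2, makes its count uncertain. The receptor gene IL1R1 had a ratio of 0.497 in shABL1, 0.978 in shABL2 and 0.697 with both.

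Pathway genes above shCtrl included VCAM1 (ratios 2.35, 1.72 and 1.85), CX3CL1 (2.85, 1.77 and 2.73, from 24 to 78 counts) and the death receptor gene TNFRSF10B (2.01, 1.57 and 1.66). TRAF1, an adaptor and NF-κB target, had ratios of 1.76, 1.90 and 1.67. MAP3K14 was higher in shABL1 (2.10) and the double line (1.74) and not in shABL2 (0.843), the same order as BIRC3. CSF3 had ratios of 1.83, 1.98 and 1.40, TLR4 had 0.968, 1.95 and 1.14, IL1RAP had 1.43, 1.76 and 1.18, and LCN2, with 17 to 59 counts, had 1.85, 0.548 and 0.735. CSF3 and TLR4 were among the genes that fell with Ponatinib, and both were above shCtrl in shABL2. None of the 16 other antioxidant enzymes was more than 2-fold away from shCtrl in either direction in any line (0 and 0 in each), beside the ratios of SOD2. Of 9 markers of other cell types only PECAM1 (233 counts in shCtrl, 393 to 499 in the knockdowns) and CD14 (32 counts, then 71 to 87) reached 10 counts in any sample. The summed level of the 9, in plain CPM, was 3.83 to 5.48 in the DMSO and Ponatinib samples. In the hairpin lines, which are not compared with those samples, it was 23.3 to 46.2. These 2 markers were higher in the knockdown lines, and their part in the ratios was not tested.

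**Figure D5:**
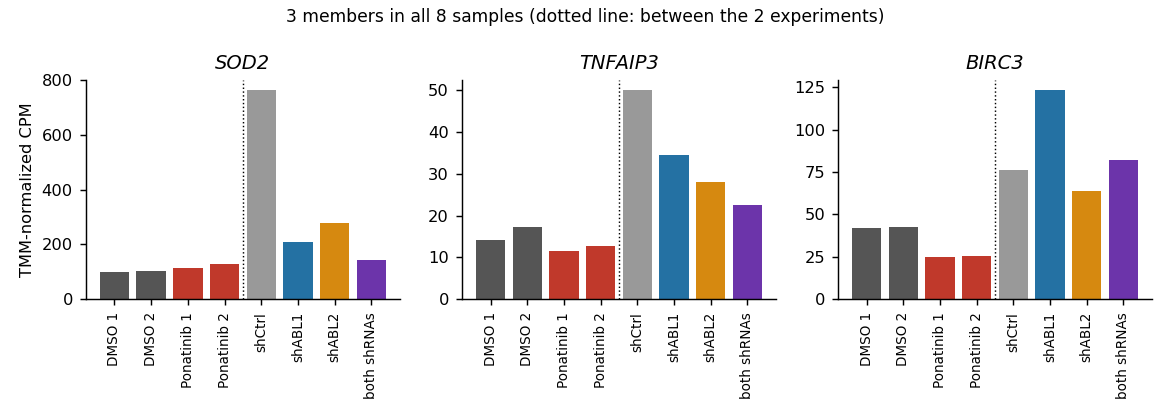
TMM-normalized CPM of SOD2, TNFAIP3 and BIRC3 in each of the 8 samples, 1 bar per sample with bars from 0, and a dotted line between the 2 experiments, which were scaled separately and are not compared. The Ponatinib bars differ little from DMSO for SOD2, whose shCtrl bar (762 CPM) is far above the 3 knockdown bars (143 to 277 CPM).

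Within the knockdown experiment, ratios of raw counts between members also need no scaling, and they restate the levels above. SOD2 had 3.77 counts per NFKBIA count in shCtrl, 1.10 in shABL1, 1.85 in shABL2 and 0.964 with both hairpins. BCL3 had 0.760, 0.434, 0.638 and 0.616 counts per BIRC3 count in the same order, lower in each knockdown than in shCtrl, where the Ponatinib samples were higher than DMSO. NFKBIA had 2.19 counts per NFKB1 count in shCtrl and 2.83, 1.93 and 2.34 in the knockdowns, on both sides of the control.

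The 5 genes whose levels over the 8 samples were most like those of NFKBIA were ATXN3, SOS2, BTG1, CHASERR and XKR8, with root mean square differences of 0.047 to 0.0781 on the log2 CPM scale centred within each experiment, out of 11813 genes. No other member was near the top. The nearest, REL, ranked 2678 and SOD2 ranked last of the members at 11343. The ranking rests on 8 samples and is given as a description.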

How the data were processed

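RNA from 8 LM2 samples was sequenced. The authors mapped reads with TopHat to hg38 and counted them per gene with HTSeq 0.6.0, and the deposited files hold unnormalized counts, each file for 1 sample. The annotation release and the strand setting are not given in the sources used here, and the kit does not mark strand. The shRNA files end in 5 summary rows (15.66% to 16.02% of all reads), which were left out of library sizes. Symbols from GENCODE 44 matched 54836 of 58688 rows. Total counts ranged from 7568934 to 13010896, and the least deep sample, Ponatinib 2, sets the widest limit.

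Ponatinib was compared with DMSO over the 4 samples by the quasi-likelihood test of edgeR 4.0.16 (R 4.3.3, TMM scaling, filterByExpr, prior count 0.125, Benjamini-Hochberg adjustment over 16031 genes). Knockdowns, at 1 sample each, were given as ratios of TMM-scaled CPM with 95% exact binomial intervals, over genes with at least 10 counts in any shRNA sample. Intervals cover counting error only. Replicates differed by more than sampling noise (chi-square per degree of freedom 1.55 for DMSO and 3.72 for Ponatinib), so none was counted as a repeat deposit. Promoter sequences are from RefSeq and coordinates from GRCh38. The code was tested on simulated data.

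The members and gene lists were chosen with earlier results of these data known. Genes named are all members, ABL1 and ABL2, up to 5 called genes per list with the largest Ponatinib change, the 5 largest rises and falls of listed genes per knockdown with at least 30 counts in the higher of the 2 samples, and the 5 profiles most like NFKBIA among genes with a mean of at least 50 counts. Alternatives were DESeq2 1.42.0 (size factors and Wald test), the study's fold rule, other count filters and prior counts, the replicate block, leaving out samples, a 1.5-fold limit and exchanging shCtrl with shABL1.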

Additional observations from a re-analysis of the deposited data

How the results depend on the processing

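Over the Ponatinib fold changes of the members and the named genes, 331 of the alternative values were labelled as unchanged. For named genes outside the members, 20 no longer passed the threshold. Members were labelled by size, not by the threshold, and 7 of their values moved by more than the spread between replicates. The calls lost by SOD2, RELA and NFKB2 are therefore not among the 20. No value changed direction among called genes. The rule of a fold over 2 with an unadjusted P under 0.05 gave 511 genes higher and 367 lower against 2406 and 2511, with 1 and 0 members and 4 and 10 pathway genes. DESeq2's Wald test gave 1328 and 1481 genes, and 9 pathway genes higher. Leaving out 1 sample at a time gave 1355 to 2809 genes higher and 1445 to 2935 lower, 2 to 4 members higher and 2 to 5 lower, and 9 to 18 pathway genes higher and 23 to 36 lower. The low ends of the all-gene counts came without DMSO replicate 1, and DMSO replicate 2 left out gave 1560 higher. The repeat numbers did not pair the samples (r = 0.0311 of same-numbered deviations over 11933 genes), and with the replicate number as a block 2423 genes were higher and 2561 lower, with 3 and 4 members and 15 and 29 pathway genes, so that the block changed no count by over 1.5 times.

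In the knockdowns, scaling by total counts or by DESeq2's size factors changed the direction of 0 of 30 member ratios, and plain CPM gave 3 pathway genes higher in shABL2. A minimum of 100 counts in every sample left 1 pathway gene lower in shABL1, 4 in shABL2 and 4 with both, and 0 higher with both. A limit of 1.5-fold gave 1 member higher and 2 lower in shABL1 and 3 lower in shABL2. It gave 10 and 17, 10 and 16, and 8 and 18 pathway genes higher and lower in shABL1, shABL2 and both. In the same order, 13% and 11.7%, 12.2% and 8.55%, and 12.2% and 9.85% of all genes were past it. With shCtrl and shABL1 exchanged, SOD2 had log2 ratios of 1.87 in shABL1 and 0.41 in shABL2, 1 member was higher in shABL1, and 0 were lower in any line. Pathway genes were then 3 and 3 in shABL2 and 0 and 2 with both. The fewer genes under the stricter filter follow from its construction, and the cause of the other differences was not tested. With 48 to 60 counts per sample for REL and 3 to 13 for CX3CL1 in the Ponatinib experiment, and 22 to 70 for CCL20 in the hairpin lines, depth limits what these genes can show, and with 1 sample per knockdown no spread between cultures is known.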
